A study of Mus musculus with 14 samples.

Results

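The libraries of siSbp2l and siPdgfra OPC/OLs at Day3 were compared with each other, gene by gene. Both groups were mouse primary oligodendrocyte precursor cells (OPCs) that had begun to become oligodendrocytes (OLs), and they differed in the mRNA that was knocked down (KD). Levels are given as FPKM (fragments per kilobase of exon, scaled to the mapped fragments of a library). A gene entered the comparison with 1 FPKM or more in any 2 of these 4 libraries. This left 11283 of the 23427 genes in the table. A gene under 1 FPKM in both libraries of 1 group entered through the other group alone, so it could only be higher there. Examples among the genes named below are Ccnb1, Mki67, Larp6 and Pmp2, which entered through siPdgfra, and Rxrg, Cntn2 and Egfr, which entered through siSbp2l.

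OPCs are the dividing cells of the brain that give rise to OLs, the cells that wrap axons in myelin. Pdgfra is the receptor for PDGF-AA, the mitogen that keeps OPCs dividing and holds them as precursors, and its level falls when a cell commits to the OL lineage. Secisbp2l (Sbp2l) is a paralog of Secisbp2, the protein that binds the RNA element through which selenocysteine is inserted into selenoproteins, and it is carried at a high level by OLs. Myelin membrane is unusually rich in cholesterol and galactolipids, so a maturing OL depends on the enzymes that make them.

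All cultures came from mice of the C57BL/6J strain, with the brain cortex of several pups at postnatal day 7 pooled as starting material. OPCs were captured with an antibody against PDGFRα after unwanted cells had been removed on other plates, so every culture started from cells that carried the protein encoded by Pdgfra. The cells were transfected with siRNA (small interfering RNA, which lowers the mRNA it matches), and in the study differentiation was induced by withdrawing PDGF-AA and adding the thyroid hormone T3. The labels give the genotype of the siSbp2l group as Secisbp2l knockdown and that of the siPdgfra group as Pdgfra knockdown, each with 2 libraries. The other Day3 groups were non-treated, mock, NC siRNA #1 and NC siRNA #2, with 2 libraries each. These 8 control libraries were genetically wild-type cells of the same strain and are used here to place both KDs. How many siRNA sequences each culture received was not given in the sources used here, and an effect of an siRNA other than on its target cannot be told apart from the effect of the target. The study describes 2 independent replicates of cultured OPCs. The p-values measure the spread between such cultures, pooled over all Day3 groups. The estimated depth of the 4 libraries lay between 19986700 and 21695200 fragments. Among the controls NC siRNA #2 replicate 2 was shallower, at 6559100 fragments.

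The labels were checked against OL lineage genes. Olig2, a transcription factor of the whole lineage, stood at 141 and 146 FPKM in siSbp2l and at 189.8 and 173 FPKM in siPdgfra, with 129 to 185 FPKM in the controls. Genes that define microglia and endothelium were close to absent in the 4 libraries, as 11 of the 14 microglia markers in the table and 7 of the 8 endothelial markers were under 1 FPKM in each of them. In bulk RNA, fewer cells of a type and less RNA per cell cannot be told apart, and this holds for every result that follows.

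Each siRNA had lowered its own target. Secisbp2l (chromosome 2, 125736986 to 125782870, minus strand, mm10) was at 3.91 and 3.82 FPKM in siSbp2l and at 145 and 143 FPKM in siPdgfra. The siPdgfra values lay within the range of the 8 controls, 135 to 255 FPKM, and the siSbp2l values lay far below it. The log2 difference, siSbp2l minus siPdgfra on the log2(FPKM + 1) scale, was -4.90 ± 0.14 (SE, n = 2 per group, limma adjusted p = 2.09e-08). Pdgfra (chromosome 5, 75152291 to 75198204, plus strand) was at 149.9 and 144 FPKM in siSbp2l against 3.30 and 2.69 FPKM in siPdgfra, with 32.4 to 72.1 FPKM in the controls. Here both KDs stood outside the controls, siPdgfra below and siSbp2l above them, and the difference was 5.22 ± 0.11 (adjusted p = 2.85e-09). Relative to the mean of the 4 control groups Pdgfra was higher by 1.54 in siSbp2l (adjusted p = 4.7e-07) and changed by -3.68 in siPdgfra. The 49.1-fold span between the KDs at this gene therefore holds a rise in siSbp2l as well as the fall in siPdgfra. The OPCs labelled Day0 held 409 and 436 FPKM.

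Across the genome the cultures differed in both directions about evenly on the FPKM scale as deposited. Calls needed a 2-fold difference or more together with an adjusted p under 0.05 (limma, Benjamini-Hochberg over the 11283 genes, two-sided). By this rule 1591 genes were called, 14.1% of those tested. In siSbp2l 808 genes (7.16%) were higher and 783 (6.94%) were lower, and the median log2 difference over all tested genes was 0.06. After median-ratio scaling of the libraries 682 were called higher and 862 lower. Differences of over 4-fold were more often lower in siSbp2l, with 114 genes against 65 higher. The replicates were close, with an SD of the log2 difference between replicates of 0.149 in siSbp2l and 0.199 in siPdgfra. It was 0.460 in the non-treated group, which enters the same pooled spread. Leaving that group out gave 1589 called genes.

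**Figure D1:**
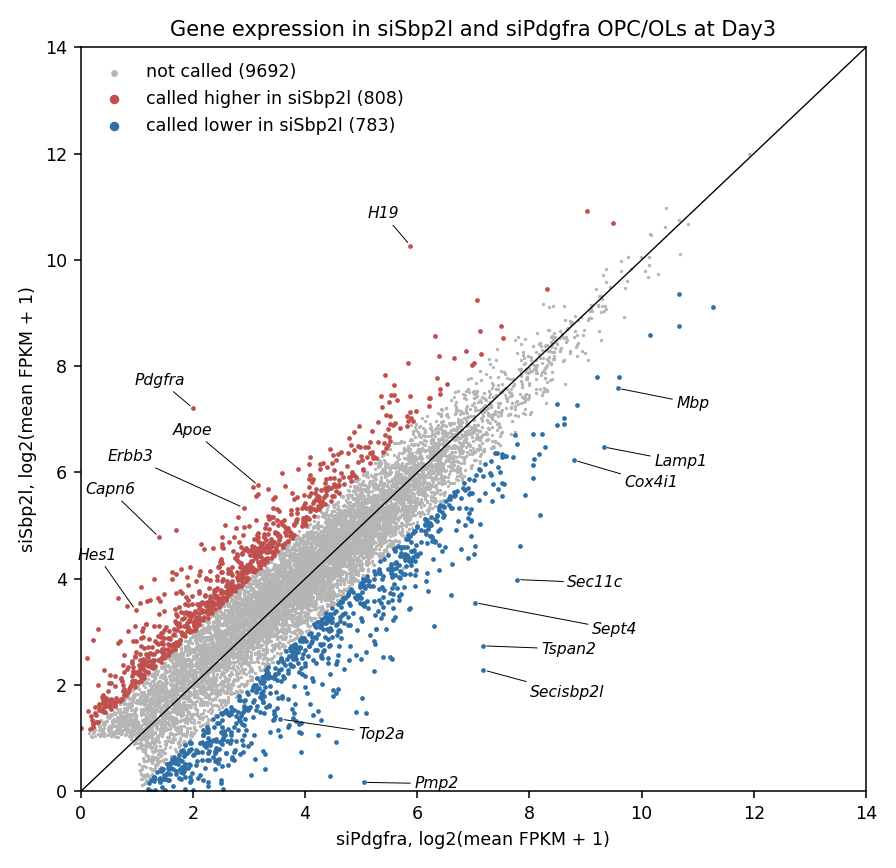
Mean level of each of the 11283 tested genes in siPdgfra (x axis) and siSbp2l (y axis), both as log2(mean FPKM + 1), 2 libraries per group. Red points are the 808 genes called higher in siSbp2l, blue points the 783 called lower and grey points the rest, and the line marks equal levels. Pdgfra and H19 lie farthest above the line, and Secisbp2l, Pmp2 and Tspan2 farthest below it.

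Called genes were placed beside the controls, with which both KDs are compared through the same 8 libraries. Of the 808 genes higher in siSbp2l, both siSbp2l libraries exceeded all 8 controls for 509 (63%), and both siPdgfra libraries lay under all 8 for 550 (68.1%). Over all tested genes the corresponding shares were 31.8% and 16.7%. Of the 783 genes lower in siSbp2l, siSbp2l lay under all controls for 450 (57.5%, against 13% of all tested genes) and siPdgfra above all controls for 478 (61%, against 27.4%). Both lists of called genes hold genes where siSbp2l lay outside the controls and genes where siPdgfra did. They were picked for a difference between these same KD libraries. Shares above those of all tested genes therefore follow in part from that choice, and they are a description and not a test.

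Among genes higher in siSbp2l with a mean of at least 10 FPKM in either KD, the largest difference after Pdgfra was that of H19, an imprinted long non-coding RNA that is abundant in fetal tissue. H19 (chromosome 7, 142575532 to 142578146, minus strand) stood at 1314 and 1154 FPKM in siSbp2l and at 50.7 and 64.7 FPKM in siPdgfra. The controls spread from 75.6 to 522 FPKM, so both KDs lay outside a wide control range, on opposite sides. The difference was 4.40 ± 0.21 (adjusted p = 3.72e-07), a 21.4-fold ratio of the means. Capn6, a calpain without protease activity that binds microtubules, was at 26.5 and 26.7 FPKM in siSbp2l against 1.91 and 1.34 FPKM (3.40 ± 0.13). Fnbp1l, which links membrane bending to actin assembly, followed with 30.4 and 28.1 FPKM against 2.08 and 2.38 FPKM (3.23 ± 0.14). In both genes the 2 groups lay on either side of the control range.

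Apoe, the lipoprotein that carries cholesterol between brain cells, was at 57.3 and 48.8 FPKM in siSbp2l and at 7.17 and 8.76 FPKM in siPdgfra (2.59 ± 0.22, adjusted p = 7.95e-06). Col11a2, a fibrillar collagen chain, behaved otherwise beside the controls. Its 13.4 and 13.3 FPKM in siSbp2l lay inside the control range of 9.04 to 16.9 FPKM, while siPdgfra held 0.967 and 1.22 FPKM (2.78 ± 0.20). Slc25a39, the mitochondrial glutathione carrier, was at 49.7 and 54.1 FPKM in siSbp2l, just above the controls of 24.4 to 48.6 FPKM, and at 8.55 and 6.30 FPKM in siPdgfra (2.66 ± 0.24). Neto1, an auxiliary subunit of kainate receptors (2.70), Gpr179, an orphan receptor (2.67), Leprel1, a collagen prolyl hydroxylase (2.51), Pipox, a peroxisomal sarcosine oxidase (2.51), Galnt7, an enzyme of O-glycosylation (2.50), and Fam70a (2.96) completed the largest differences in this direction.

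Among the genes lower in siSbp2l, Pmp2, the fatty acid binding protein of myelin, had the largest difference after Secisbp2l itself. Pmp2 (chromosome 3, 10179851 to 10183885, minus strand) was at 0.181 and 0.0676 FPKM in siSbp2l and at 32.1 and 31.7 FPKM in siPdgfra, with 1.04 to 7.28 FPKM in the controls. The siSbp2l values correspond to a handful of fragments and no fold is given for them, and the log2 difference was -4.87 ± 0.15 (adjusted p = 2.67e-08). Tspan2, a tetraspanin of early myelinating OLs, was at 5.65 and 5.69 FPKM against 144 and 142 FPKM, a 25.2-fold difference (-4.43 ± 0.18). Its siPdgfra level lay just above the controls (79.5 to 128 FPKM), so siSbp2l carried most of the span.

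Pkd2l1 and Fam38b, both cation channels and the second a mechanosensor now called Piezo2, had the reverse layout. Pkd2l1 was at 0.327 and 0.111 FPKM in siSbp2l and 21.1 and 20.7 FPKM in siPdgfra, against 0.13 to 2.47 FPKM in the controls (-4.17 ± 0.11). Fam38b was at 1.84 and 1.76 FPKM in siSbp2l and 28.0 and 30.3 FPKM in siPdgfra, against 1.65 to 2.86 FPKM (-3.43 ± 0.11). For both it was siPdgfra that stood apart from every other Day3 library. Sec11c, a subunit of the signal peptidase, moved on both sides by like amounts, at 14.3 and 15.3 FPKM in siSbp2l and 219 and 216 FPKM in siPdgfra with controls between 43.2 and 93.6 FPKM (-3.79 ± 0.10). Ppfibp2, a liprin (-3.61), Megf10, an engulfment receptor (-3.25), Syt4, a synaptotagmin of secretory vesicles (-3.20), Plau, the urokinase protease (-3.19), and Hebp1, a haem-binding protein (-3.18), were lower by similar amounts.

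**Figure D2:**
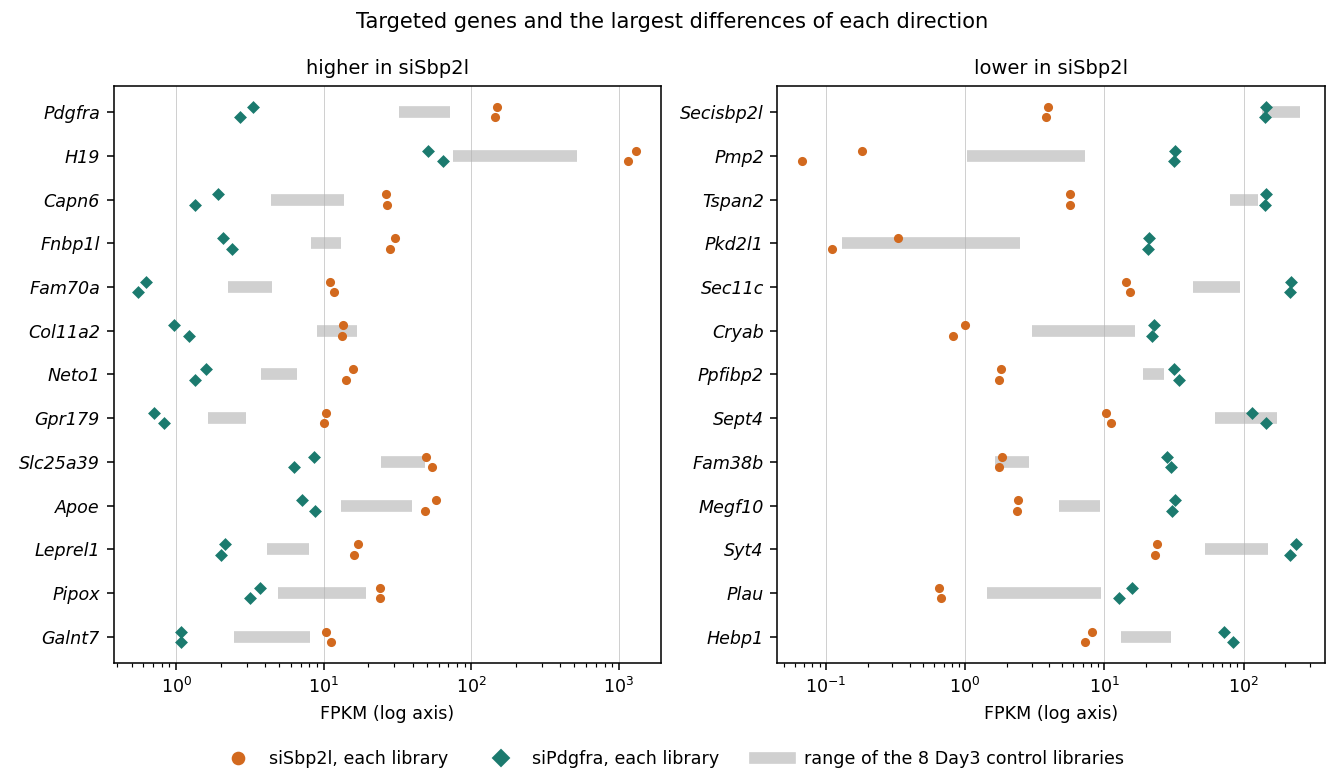
FPKM (log axis) of the 2 targeted genes and of the 12 genes with the largest difference in each direction, for each siSbp2l library (circles) and each siPdgfra library (diamonds), with the range of the 8 Day3 control libraries as a grey bar. The 2 libraries of a group lie close together in every row, and the controls mostly lie between the groups, except for rows such as Col11a2, Sept4 and Fam38b where 1 of the KDs lies in the bar.

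Myelin genes were largely lower in siSbp2l than in siPdgfra. Of 26 tested members, 14 were called lower and 2 higher, where 6.94% and 7.16% of all tested genes were called, and the median log2 difference was -1.34. Mbp, a major structural protein of compact myelin, was at 179 and 202 FPKM in siSbp2l and at 777 and 749.7 FPKM in siPdgfra. The siPdgfra values lay within the control range of 434 to 1188 FPKM and the siSbp2l values under it, with a difference of -1.997 ± 0.19 (adjusted p = 2.07e-05). Cryab, a small heat shock protein of OLs, was at 0.999 and 0.817 FPKM against 22.8 and 22.04 FPKM (-3.62 ± 0.13). Sept4, a septin of the myelin scaffold, was at 10.3 and 11.1 FPKM against 114 and 145 FPKM (-3.47 ± 0.15).

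Other members, named after their values were seen, followed. Mog, a late marker on the outer myelin surface, was at 3.73 and 3.94 FPKM in siSbp2l against 39.6 and 33.4 FPKM (-2.95). The gap junction genes Gjb1 (-2.52) and Gjc3 (-1.93), through which OLs couple to astrocytes, were also called lower. The list was not uniform, however. Mag, an adhesion protein of the inner myelin layer, was at 51.0 and 60.4 FPKM in siSbp2l and 59.6 and 59.2 FPKM in siPdgfra (-0.10, adjusted p = 0.734), and the values of the 2 groups overlapped. Cldn11, the tight junction protein of myelin, likewise overlapped (0.08, adjusted p = 0.585).

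Further myelin genes that the study discusses differed in their levels beside the controls. Cnp, a myelin enzyme, was at 850.3 and 917 FPKM in siSbp2l and 1108 and 1015 FPKM in siPdgfra (-0.26 ± 0.15, adjusted p = 0.166), while the controls held 1273 to 1895 FPKM. Tppp, a tubulin polymerisation factor, was at 52.5 and 55.6 FPKM against 71.6 and 74.0 FPKM (-0.42 ± 0.10, adjusted p = 0.00545), and here both KDs lay far below the controls at 215 to 446 FPKM. Mobp, a late myelin protein, was at 3.83 and 3.52 FPKM against 8.91 and 11.9 FPKM (-1.28 ± 0.13, called), with controls from 5.05 to 103 FPKM. Over the whole list siSbp2l had a median difference of -1.03 from the control mean and siPdgfra one of 0.05. The 2 members called higher in siSbp2l, chosen for naming after their values were seen, were Pmp22 (25.9 and 27.6 against 4.88 and 6.47 FPKM, 2.07), best known from peripheral myelin, and Mal (3.91 and 4.70 against 1.04 and 0.738 FPKM, 1.49), a lipid raft protein of myelin.

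Markers of committed and premyelinating OLs had 4 of 14 tested members lower and 1 higher, with a median of -0.59. The share called was 35.7%, against 14.1% of all tested genes. Sirt2, a deacetylase enriched in OLs, was at 419.6 and 438 FPKM in siSbp2l and at 1650.5 and 1596 FPKM in siPdgfra (-1.92 ± 0.16). The long non-coding RNA 9630013A20Rik was at 41.7 and 52.1 FPKM against 267 and 217 FPKM (-2.34 ± 0.34). Rras2 (-1.41), a small GTPase, and Cnksr3 (-1.31), a scaffold of kinase signalling, were also lower. Both KDs were under the controls for this list, with medians of -1.17 in siSbp2l and -0.66 in siPdgfra.

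OPC markers largely lay on the other side. Of 19 tested, 8 were called higher in siSbp2l and 0 lower, where 7.16% and 6.94% of all tested genes were called. The median was 0.87, with 13 positive differences and 6 negative ones, down to -0.83. The 8 include Pdgfra, the target of siPdgfra, whose call follows from the design. Besides Pdgfra the called members were led by Lhfpl3, Nes and Cacng4. Lhfpl3, a membrane protein typical of OPCs, was at 167 and 182 FPKM in siSbp2l and 48.5 and 41.8 FPKM in siPdgfra (1.93 ± 0.22). Nes, the intermediate filament of neural precursors, was at 61.2 and 60.4 FPKM against 16.1 and 15.8 FPKM (1.87 ± 0.10), and Cacng4, an AMPA receptor auxiliary subunit, at 122 and 122 FPKM against 39.3 and 37.6 FPKM (1.64 ± 0.10). Relative to the control mean the list had medians of 0.12 in siSbp2l and -0.45 in siPdgfra, and the layout differed by gene. Lhfpl3 was near the controls in siSbp2l (-0.08) and far under them in siPdgfra (-2.01), whereas Nes was above them in siSbp2l (1.42) and moderately under them in siPdgfra (-0.45). Cspg4, the NG2 proteoglycan, was low throughout at 2.24 and 2.26 FPKM against 0.54 and 0.448 FPKM (1.12). The lineage factors Olig1 and Sox10 were not called, and Olig2 had a difference of -0.33 ± 0.11 (adjusted p = 0.0318).

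**Figure D3:**
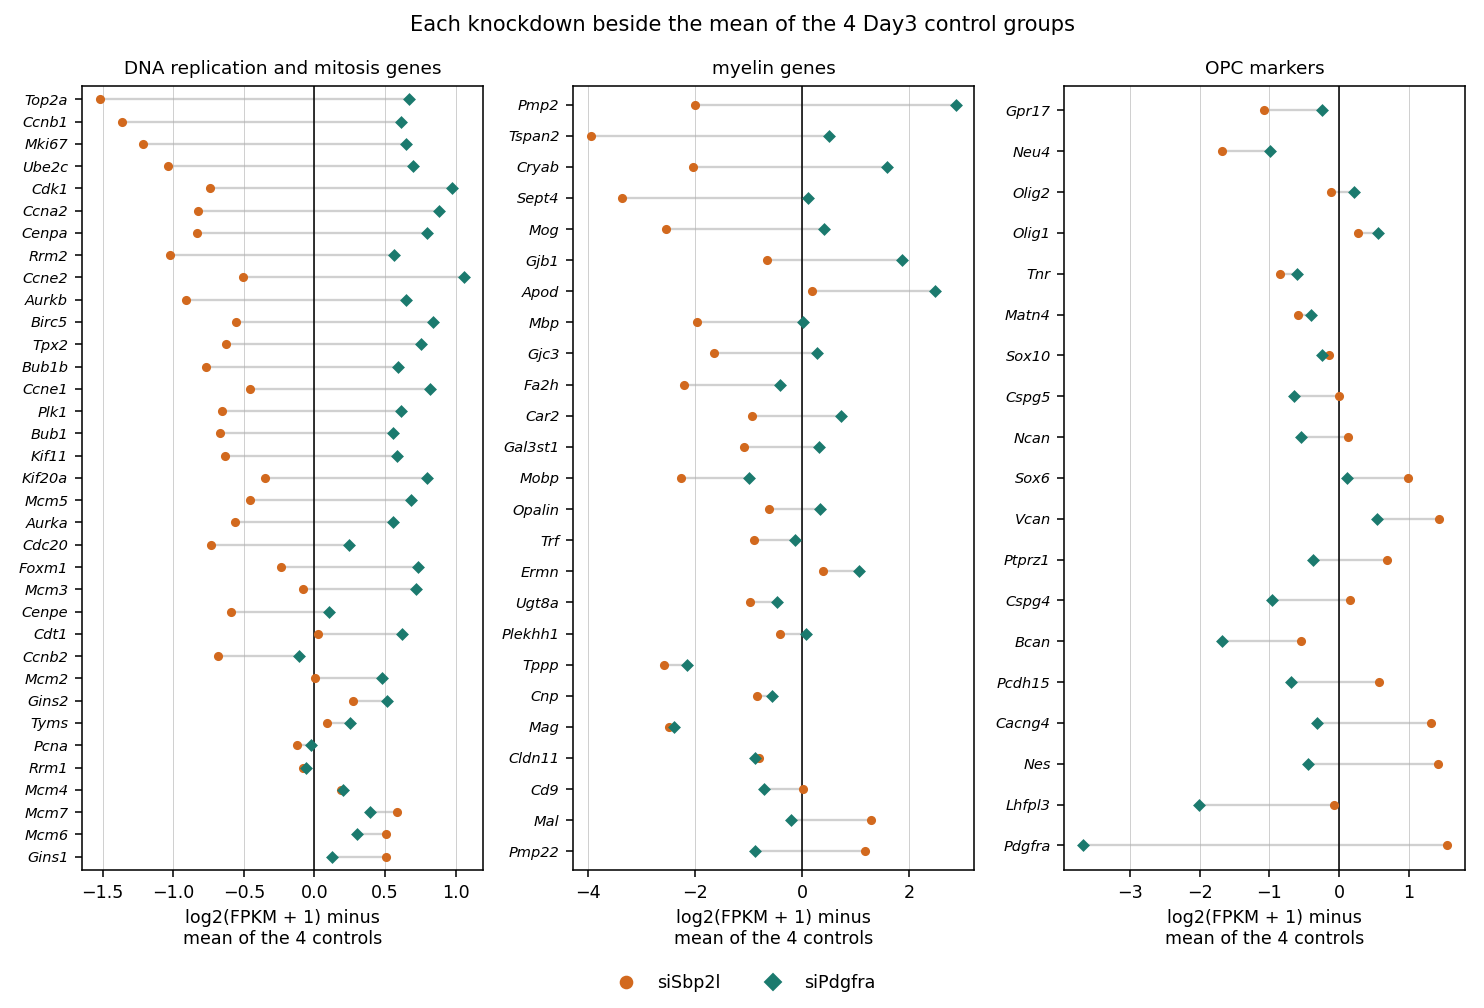
Difference of siSbp2l (circles) and siPdgfra (diamonds) from the mean of the 4 Day3 control groups on the log2(FPKM + 1) scale, for tested DNA replication and mitosis genes, myelin genes and OPC markers, leaving out members not reported here, each panel ordered by the difference between the KDs. Both points of a gene use the same 8 control libraries. For most mitotic genes the points lie on opposite sides of 0, for most myelin genes siSbp2l lies to the left, and for Tppp, Mag and Mobp both points lie to the left of 0.

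Transcription factors that hold back OL differentiation had 6 of 15 tested members higher in siSbp2l and 1 lower (median 0.64). Here 46.7% were called, against 14.1% of all tested genes. Hes1, a Notch effector, was at 9.52 and 9.72 FPKM against 0.902 and 1.03 FPKM (2.43 ± 0.14, adjusted p = 9.39e-07), and Hes5, a second one, at 12.7 and 12.4 FPKM against 2.97 and 1.81 FPKM (2.02 ± 0.34). Id2, an inhibitor of basic helix-loop-helix factors, was at 162 and 155 FPKM against 42.8 and 45.0 FPKM (1.83 ± 0.12). Sox11, a factor of immature neural cells, was at 46.1 and 45.0 FPKM against 13.5 and 13.6 FPKM (1.68 ± 0.11). The siSbp2l libraries exceeded all 8 controls for Hes1, whose highest control was at 2.29 FPKM, for Id2 (66.8 FPKM) and for Sox11 (20.9 FPKM), and also for Hes5.

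Factors that drive differentiation were mixed, with 2 of 17 higher, 1 lower and a median of 0.11. The share called, 17.6%, was near the 14.1% of all tested genes. Chd7, a chromatin remodeller, was at 58.2 and 55.5 FPKM against 22.4 and 24.5 FPKM (1.24 ± 0.10). Zfp488, a zinc finger factor of OLs, was lower at 45.1 and 48.2 FPKM against 108 and 95.1 FPKM (-1.10 ± 0.10). Tcf7l2, the high mobility group factor of premyelinating OLs that the study follows, was at 45.0 and 48.1 FPKM in siSbp2l and at 25.2 and 26.3 FPKM in siPdgfra. The siSbp2l values sat at the low edge of the controls, 47.2 to 60.97 FPKM, and the siPdgfra values lay under all of them (-1.04 relative to their mean). The difference of 0.83 ± 0.09 passed the adjusted p (3.28e-05) but not the fold threshold.

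Of 22 tested cholesterol synthesis genes, 8 were called lower in siSbp2l. In the pathway, acetyl units are joined to mevalonate, then to squalene, and squalene is closed to a sterol and trimmed to cholesterol. Of the 11 genes of the mevalonate and squalene steps, 3 were called lower and 0 higher, with a median of -0.69 and a range from -1.11 to 0.57. Of the 11 genes of the sterol steps, 5 were called lower and 0 higher, with a median of -0.97 and a range from -1.50 to 0.15, where 6.94% of all tested genes were called lower. Sc5d and Tm7sf2 had the largest differences. Their promoters are shown as those of the largest called differences among members with a single promoter entry that held the motif marked below. The sequences are the 250 bases before the start from RefSeq on GRCm38.p6, written on the strand of the gene, with CCAAT or its reverse complement ATTGG in capitals.
Sc5d (chr9:42264301-42264550, minus strand): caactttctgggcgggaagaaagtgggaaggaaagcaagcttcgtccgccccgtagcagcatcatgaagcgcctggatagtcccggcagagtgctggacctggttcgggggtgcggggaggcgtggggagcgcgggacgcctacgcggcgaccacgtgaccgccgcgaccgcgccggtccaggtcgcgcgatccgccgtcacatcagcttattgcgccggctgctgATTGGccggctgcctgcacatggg
Tm7sf2 (chr19:6067851-6068100, minus strand): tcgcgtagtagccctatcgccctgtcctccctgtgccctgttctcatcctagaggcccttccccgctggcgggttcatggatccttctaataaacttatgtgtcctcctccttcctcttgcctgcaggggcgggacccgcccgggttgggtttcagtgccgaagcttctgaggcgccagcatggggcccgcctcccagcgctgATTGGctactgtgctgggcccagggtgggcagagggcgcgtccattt
CCAAT on either strand was found in all 10 sterol-step genes that matched a promoter entry and in 6 of the 7 matched genes of the earlier steps. Of the 8339 matched tested genes 41.6% held it. These counts are by gene, and a match in any promoter entry of a gene counts. By single promoter entry, an unlike unit, it was in 33.8% of 32851 promoters of the same length. The motif was chosen after the data were seen, and a match is a description of letters only.

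Sc5d, which introduces a double bond into the sterol ring, was at 12.9 and 13.3 FPKM in siSbp2l and at 41.5 and 35.9 FPKM in siPdgfra (-1.50 ± 0.11, adjusted p = 4.23e-06). Tm7sf2, a sterol reductase, was at 5.90 and 5.70 FPKM against 21.0 and 15.7 FPKM (-1.49 ± 0.21, adjusted p = 0.000248). Sc4mol, a sterol demethylase now called Msmo1, was at 38.0 and 40.4 FPKM against 101 and 90.7 FPKM (-1.27 ± 0.10). In each of these 3 genes siSbp2l lay under all 8 controls. For Sc4mol siPdgfra lay within the control range, and for Sc5d and Tm7sf2 it straddled the highest control. Dhcr7, a late reductase of the pathway and a member named after its values were seen, differed by -1.12, with siSbp2l at 30.3 and 32.3 FPKM inside the controls and siPdgfra at 76.3 and 63.1 FPKM above them.

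In the earlier steps Mvk, the mevalonate kinase, was at 13.4 and 16.3 FPKM in siSbp2l and 33.1 and 32.9 FPKM in siPdgfra (-1.11 ± 0.20). Fdps (-1.09), the farnesyl diphosphate synthase, and Idi1 (-1.08), the isomerase before it, were just past the fold threshold. Lss and Hsd17b7, named after their values were seen, were under the controls in both groups and differed little between them, by 0.05 and 0.15. With the 8 control libraries as reference, the sterol-step list had medians of -0.97 (siSbp2l) and 0.02 (siPdgfra), and the earlier list of -0.84 and -0.17.

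**Figure D4:**
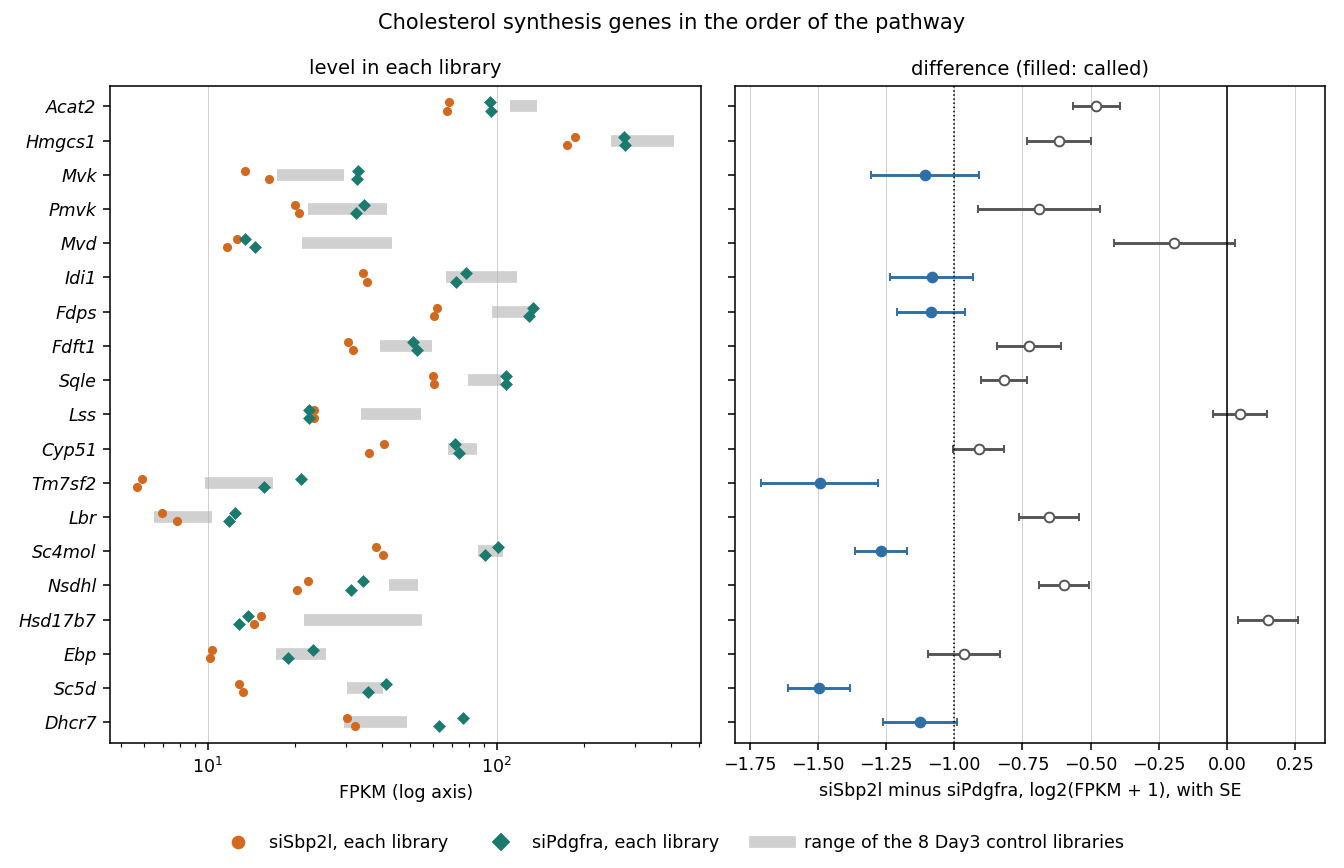
Cholesterol synthesis genes from top to bottom in the order of the pathway, leaving out Ggps1 and members not reported here. The left panel gives FPKM (log axis) of each siSbp2l library (circles), each siPdgfra library (diamonds) and the range of the 8 Day3 controls (grey), and the right panel the difference between the KDs with its SE, filled where called, the dotted line marking a 2-fold lower level. The called differences lie between -1.08 and -1.50, and among the genes drawn Lss and Hsd17b7 lie just to the right of 0, while the range of the mevalonate and squalene list reaches 0.57 with a member not drawn.

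Genes that take up or carry sterols were split. Of 15 tested genes of SREBP control, uptake and export, 2 were called higher and 2 lower (median -0.16). The share called was 26.7%, against 14.1% of all tested genes. Lrp1, a receptor for Apoe particles, was higher alongside Apoe itself, at 29.4 and 31.0 FPKM against 6.01 and 5.601 FPKM (2.19 ± 0.14). Vldlr, a receptor for lipoproteins and reelin, was lower (-1.17). Of 20 fatty acid and galactolipid genes, 6 were called lower and 1 higher, or 35% against 14.1% of all tested genes. Fa2h, which makes the 2-hydroxy fatty acids of myelin lipids, was at 10.8 and 13.6 FPKM against 47.8 and 41.0 FPKM (-1.79 ± 0.15), Elovl6, a fatty acid elongase, at 13.2 and 14.7 FPKM against 49.8 and 44.0 FPKM (-1.68 ± 0.14), and Gal3st1, the sulfotransferase that makes sulfatide, at 21.8 and 22.01 FPKM against 65.2 and 54.5 FPKM (-1.40 ± 0.27). Cerk, the ceramide kinase, was lower too (-1.47).

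DNA replication and mitosis genes were lower in siSbp2l, with 20 of 35 tested members called lower and 0 higher and a median of -1.15. Among all tested genes 6.94% were called lower. Top2a, the topoisomerase of dividing cells, was at 1.53 and 1.60 FPKM in siSbp2l and 9.65 and 11.8 FPKM in siPdgfra, against 220 and 264 FPKM at Day0. Its promoter and that of Mki67 are shown. They belong to the largest called differences among members with a single promoter entry whose window held both motifs marked below. That each window holds both motifs therefore follows from the choice. The sequences are as before from RefSeq on GRCm38.p6 with the 250 bases before the start. Capitals mark CCAAT or ATTGG, and TTTGAA or TTCGAA or their reverse complements, letters found in promoters of cell-cycle genes.
Top2a (chr11:99024190-99024439, minus strand): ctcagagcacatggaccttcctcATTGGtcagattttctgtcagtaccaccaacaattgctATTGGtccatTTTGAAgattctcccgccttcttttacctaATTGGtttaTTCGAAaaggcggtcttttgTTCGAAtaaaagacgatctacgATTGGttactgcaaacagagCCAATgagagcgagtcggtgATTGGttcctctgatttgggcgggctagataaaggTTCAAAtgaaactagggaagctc
Mki67 (chr7:135716380-135716629, minus strand): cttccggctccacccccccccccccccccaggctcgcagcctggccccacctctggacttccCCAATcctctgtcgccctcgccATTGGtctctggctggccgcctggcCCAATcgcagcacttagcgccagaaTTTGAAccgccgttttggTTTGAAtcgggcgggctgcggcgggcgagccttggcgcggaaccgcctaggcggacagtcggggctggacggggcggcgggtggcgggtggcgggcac
The Top2a window held 6 matches of the first motif and 4 of the second, and the Mki67 window 3 and 2. Of the 26 list members with a promoter entry, 22 held CCAAT and 10 held TTTGAA or TTCGAA on either strand. By gene, as for these members, TTTGAA or TTCGAA was in 13.7% of matched tested genes. By single promoter entry it was in 17.1% of all promoters. These motifs, too, were chosen after the data were seen.

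Top2a differed by -2.19 ± 0.16 (adjusted p = 3.12e-06). Ccnb1, the cyclin of mitotic entry, was at 0.618 and 0.816 FPKM against 6.09 and 5.42 FPKM (-1.98 ± 0.13), Mki67, the proliferation marker, at 0.553 and 0.727 FPKM against 4.66 and 5.31 FPKM (-1.87 ± 0.16), and Ube2c, a ubiquitin enzyme of mitotic exit, at 1.80 and 2.33 FPKM against 10.3 and 8.22 FPKM (-1.74 ± 0.26). The controls were wide here, from 1.33 to 16.0 FPKM for Top2a, so that neither KD lay outside the range of the 8 libraries for that gene. Relative to the control mean the list had a median of -0.57 for siSbp2l and 0.61 for siPdgfra.

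Not all members were lower. Mcm4, Mcm6, Mcm7, Pcna and Rrm1, genes of replication chosen after their values were seen, had differences between -0.10 and 0.21 and none was called, and Pcna, the sliding clamp, was at 69.7 and 70.2 FPKM against 72.3 and 77.9 FPKM. Some called members, such as Ccnb1 and Mki67, passed the filter through siPdgfra alone and could only be lower in siSbp2l. Without the low-value filter 20 of 36 members were called lower. Because the called members are low, this list depends on the pseudocount. With a pseudocount of 5 only 2 of the 35 members were called, and with a filter of 10 FPKM only 4 members were left and 0 of them were called. Among D-type cyclins and Cdk inhibitors 2 of 10 were lower, Cdkn1a, the p21 inhibitor (17.7 and 18.1 against 59.0 and 50.6 FPKM, -1.56 ± 0.14), and Ccnd3 (75.5 and 81.5 against 208 and 174 FPKM, -1.27 ± 0.24). The share called was 20%, against 14.1% of all tested genes. This list had a median of -0.003, with 5 positive and 5 negative differences. Ccnd1, the cyclin through which mitogens act, was at 19.9 and 20.9 FPKM against 18.8 and 18.8 FPKM (0.11 ± 0.09, adjusted p = 0.347).

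Genes of amino acid supply and the integrated stress response had 8 of 26 tested members lower in siSbp2l and 0 higher, with a median of -0.63. The share called was 30.8%, against 14.1% of all tested genes. Relative to the controls the list median was 0.62 in siPdgfra and 0.06 in siSbp2l. Slc7a1, a cationic amino acid transporter, was at 4.53 and 4.75 FPKM in siSbp2l, in the controls' range of 4.63 to 6.98 FPKM or next to it, and at 31.9 and 29.8 FPKM in siPdgfra (-2.50 ± 0.10, adjusted p = 9.5e-08). Chac1, which degrades glutathione and is induced by Atf4, was at 2.26 and 2.52 FPKM against 10.3 and 10.5 FPKM (-1.75 ± 0.16). Mthfd2, a mitochondrial folate enzyme, was at 6.51 and 6.39 FPKM against 18.6 and 20.1 FPKM (-1.45 ± 0.14). Gars, the glycyl-tRNA synthetase, differed from the others in that siSbp2l was also under the controls, at 34.3 and 31.6 FPKM against 119 and 129 FPKM with controls from 57.5 to 67.4 FPKM (-1.88 ± 0.10). Ddit3, a stress factor named after its values were seen, lay the other way without reaching the fold threshold (0.89).

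Receptor genes of growth factor signalling were compared next. Of the 7 PDGF ligand and receptor genes, 4 were under 1 FPKM in all 4 libraries. Pdgfa, which encodes the ligand of Pdgfra, was at 22.5 and 22.05 FPKM in siSbp2l and 28.9 and 29.2 FPKM in siPdgfra (-0.37, adjusted p = 0.268) and was named after its values were seen. Of 6 tested ErbB receptor and neuregulin genes, 3 were called higher in siSbp2l and 0 lower. Among all tested genes the shares were 7.16% and 6.94%. Erbb3, a neuregulin receptor, was at 38.1 and 40.7 FPKM against 6.32 and 6.61 FPKM (2.44 ± 0.09, adjusted p = 8.49e-08), and Erbb4, another, at 60.1 and 65.7 FPKM against 10.9 and 11.2 FPKM (2.40 ± 0.22). For Erbb4 siPdgfra lay among the controls, whose upper end was 17.6 FPKM, and siSbp2l lay above them. Egfr was low, at 1.44 and 1.46 FPKM against 0.235 and 0.0923 FPKM (1.07 ± 0.15), and its call was lost without siPdgfra replicate 2 (0.99).

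ERK feedback genes, which are switched on by the kinase cascade below such receptors, were called in 1 of 12 cases, 8.33% against 14.1% of all tested genes. The list median was 0.40, and 11 of the 12 members had a positive difference, none of them called, up to 0.76. The called gene was Dusp5, a phosphatase of nuclear ERK, lower in siSbp2l at 1.02 and 1.60 FPKM against 5.22 and 4.16 FPKM (-1.30 ± 0.24). Immediate early genes had 3 of 9 higher and 0 lower (median 0.65), or 1 higher with a pseudocount of 5. Here 33.3% were called, against 14.1% of all tested genes. The 3 were Fosl2 (9.57 and 9.21 against 2.69 and 2.18 FPKM, 1.60 ± 0.11), Egr1 (7.23 and 6.51 against 2.05 and 1.35 FPKM, 1.55 ± 0.18) and Junb (29.2 and 26.5 against 10.3 and 10.4 FPKM, 1.34 ± 0.27). Jun was at 119 and 114 FPKM against 62.9 and 67.7 FPKM (0.82 ± 0.18, adjusted p = 0.00297), and both groups exceeded the controls at 31.5 to 52.3 FPKM. Of 12 insulin and IGF genes, 1 was higher, Irs4, an insulin receptor substrate (18.5 and 16.9 against 4.18 and 4.84 FPKM, 1.76 ± 0.11), and 1 lower, the binding protein Igfbp7 (-1.79). That is 16.7% called, near the 14.1% of all tested genes.

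Of 7 tested Wnt feedback targets and Tcf/Lef factors, 2 were higher and 1 lower, or 42.9% against 14.1% of all tested genes. Apcdd1, an inhibitor of Wnt receptors, was at 30.4 and 30.4 FPKM in siSbp2l and 6.64 and 6.43 FPKM in siPdgfra, with controls of 8.10 to 11.3 FPKM (2.06 ± 0.11, adjusted p = 4.78e-07). Axin2, the standard feedback gene of the pathway, was at 6.35 and 6.07 FPKM, inside the controls' 4.76 to 7.88 FPKM, against 2.37 and 2.46 FPKM (1.08 ± 0.13). Nkd1, another feedback inhibitor, was lower at 10.62 and 9.90 FPKM against 31.6 and 32.9 FPKM (-1.56 ± 0.13), so the feedback genes did not share a direction.

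Among thyroid hormone genes 3 of 9 were higher, all of them retinoid X receptors, the partners of the thyroid hormone receptors. The share called was 33.3%, against 14.1% of all tested genes, and with a pseudocount of 5 the count was 0 of 9. Rxrg was at 4.60 and 4.78 FPKM in siSbp2l and at 0.0657 and 0.0939 FPKM in siPdgfra, the latter close to the level of a few fragments (2.40 ± 0.13), with 0.0439 to 0.666 FPKM in the controls. Rxra differed by 1.23 and Rxrb by 1.21. Dio2, the enzyme that activates thyroid hormone, was not tested because it was at 0.174 FPKM or less in all 12 Day3 libraries.

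Selenium genes were called in both directions. Of 14 tested selenoproteins 2 were higher and 1 lower, with a median of -0.01. The share called was 21.4%, against 14.1% of all tested genes. Gpx1, a cytosolic glutathione peroxidase, was at 66.5 and 69.8 FPKM in siSbp2l and 167 and 178 FPKM in siPdgfra, with controls at 50.7 to 88.5 FPKM (-1.33 ± 0.21). Msrb1, a methionine sulfoxide reductase, was at 28.9 and 27.8 FPKM against 9.81 and 10.2 FPKM (1.41 ± 0.16), and Txnrd3, a thioredoxin reductase, at 3.81 and 3.58 FPKM against 0.923 and 1.04 FPKM (1.24 ± 0.11). For Gpx1 and Msrb1 siSbp2l lay among the controls and siPdgfra outside them. Gpx4, which protects membranes from lipid peroxides, was at 193 and 184 FPKM against 281 and 273 FPKM (-0.55 ± 0.18, adjusted p = 0.0261). Of 10 genes of selenocysteine insertion, the single one called was Secisbp2l, the target of siSbp2l, whose call follows from the design. Its paralog Secisbp2 was at 20.9 and 19.5 FPKM against 14.9 and 16.7 FPKM (0.33 ± 0.10).

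Surface and matrix genes were called in both directions. The shares called were 30.8% for integrins, laminins and collagens, 33.3% for axon guidance and 21.7% for axo-glial and neuron-type adhesion genes. Of all tested genes 14.1% were called. Of 26 integrin, laminin and collagen genes, 6 were higher and 2 lower (median 0.54), or 3 and 2 with a pseudocount of 5, with Itga7, a laminin receptor chain (1.68), and Col11a1 (1.50) after Col11a2, and Col18a1 lower at 8.84 and 9.06 FPKM against 37.8 and 36.6 FPKM (-1.94 ± 0.16). Of 48 axon guidance genes, 11 were higher and 5 lower (median 0.34), or 4 and 1 with a pseudocount of 5. Plxna3, a semaphorin co-receptor, was at 6.80 and 7.34 FPKM against 0.996 and 1.28 FPKM (1.92 ± 0.13), Robo1, a Slit receptor, at 12.8 and 12.5 FPKM against 3.20 and 3.46 FPKM (1.66 ± 0.10) and Epha5, an ephrin receptor, at 12.04 and 11.0 FPKM against 2.70 and 2.63 FPKM (1.77 ± 0.13). Sema7a was lower (-1.56). Of 23 axo-glial and neuron-type adhesion genes 4 were higher and 1 lower, or 2 and 1 with a pseudocount of 5, led by Cntn2, a contactin of axon and glia, at 6.12 and 6.25 FPKM against 0.216 and 0.121 FPKM (2.62 ± 0.10). The adhesion list had a median of 0.26, with 13 positive and 10 negative differences.

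Ion channel and transmitter receptor lists also held calls in both directions. Of 15 glutamate and GABA receptor genes, 4 were higher and 1 lower (median 0.71), or 1 and 0 with a pseudocount of 5. Without that change 33.3% were called, against 14.1% of all tested genes. Gria3, an AMPA receptor subunit, was at 17.3 and 17.9 FPKM against 4.46 and 4.37 FPKM (1.78 ± 0.12), and Grm7, a metabotropic receptor, was lower at 2.95 and 2.65 FPKM against 7.77 and 7.96 FPKM (-1.22 ± 0.12). Of 24 potassium channel genes, 3 were higher and 1 lower (median -0.14), or 1 and 1 with a pseudocount of 5. Without that change of pseudocount 16.7% were called, near the 14.1% of all tested genes. Kcnmb4, Kcnk10 and Kcna5 differed by 1.65, 1.63 and 1.46, and the channel-interacting Kcnip3 by -1.38.

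Lysosomal and mitochondrial lists each held a member far from the rest. Lamp1, the main lysosomal membrane protein, was at 87.8 and 88.8 FPKM in siSbp2l and at 671 and 606 FPKM in siPdgfra, with 626 to 780 FPKM in the controls (-2.84 ± 0.11, adjusted p = 8.49e-08). Over the 27 lysosomal genes, 4 were lower and 1 higher (18.5% called, near the 14.1% of all tested genes) and the median was -0.45. With a pseudocount of 5 the counts were 2 and 0. Cox4i1, a subunit of cytochrome c oxidase, was at 80.9 and 67.5 FPKM against 416 and 469 FPKM, with 338 to 556 FPKM in the controls (-2.56 ± 0.20). Over 34 respiratory chain and ATP synthase genes, 2 were lower and 1 higher and the median was -0.31. Here 8.82% were called, fewer than the 14.1% of all tested genes. For Lamp1 and Cox4i1 siSbp2l lay far under the controls. Cox4i1 in siPdgfra was within their range and Lamp1 at its lower edge. The other called members of the respective lists differed by less, with Atp6v1b2, a proton pump subunit, next at -1.63 and Uqcrfs1, a subunit of complex III, at -1.07. Atp5f1, an ATP synthase subunit, was higher at 169.5 and 167 FPKM against 68.8 and 76.7 FPKM (1.20 ± 0.11), and here siPdgfra alone left the controls' range of 147 to 207 FPKM.

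Of 8 tested imprinted growth genes, 3 were higher and 0 lower, where 7.16% and 6.94% of all tested genes were called. Beside H19 these were Peg3, an imprinted zinc finger gene (32.5 and 33.3 against 14.04 and 14.9 FPKM, 1.13 ± 0.14), and Nnat, a small membrane proteolipid (1.09 ± 0.24). Larp6, the RNA-binding protein that the study names beside Sbp2l, was at 0.492 and 0.479 FPKM against 4.13 and 4.38 FPKM (-1.82 ± 0.18). Qk, an RNA-binding protein of OLs, was at 464 and 466 FPKM against 487 and 444 FPKM and the groups overlapped (0.00 ± 0.24, adjusted p = 0.999).

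Markers of other cell types were read in the same libraries. Of 9 tested astrocyte markers, 5 were higher in siSbp2l and 0 lower, with a median of 1.11, and with a pseudocount of 5 the count was 2. Among all tested genes 7.16% were called higher. Aldoc was at 42.5 and 35.2 FPKM against 10.57 and 10.1 FPKM (1.81 ± 0.17), and Slc1a2, the astrocytic glutamate transporter, at 22.1 and 23.4 FPKM against 6.83 and 6.50 FPKM (1.63 ± 0.16). Gfap, the astrocyte filament named after its values were seen, was at 40.7 and 39.4 FPKM against 17.97 and 18.1 FPKM (1.11), so siSbp2l was within the controls' 36.8 to 79.2 FPKM and siPdgfra under them. The summed FPKM of all astrocyte markers was 498 and 477 in siSbp2l, 429 and 429.6 in siPdgfra and 387 to 515 in the controls. Of the 3 markers that did not pass the filter, Gjb6 was at 0 and Aqp4 at 0.109 to 0.325 FPKM in the 4 libraries. These low members were named after their values were seen, and tested members such as Gfap and Aldoc were present. Set against the 8 control libraries, the astrocyte list had medians of -0.00 (siSbp2l) and -0.84 (siPdgfra). The part of these cells in the higher level of OPC markers and of Sox9, a member of both the astrocyte and the holding-back lists, was not tested.

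Neuron markers had 2 of 9 tested members higher and 1 lower, or 33.3% called against 14.1% of all tested genes. Dcx, a microtubule protein of young neurons, was at 22.3 and 23.8 FPKM against 7.76 and 7.21 FPKM (1.50 ± 0.19), while Elavl3 was lower at 44.5 and 43.0 FPKM against 134 and 139 FPKM (-1.62 ± 0.09). The summed level was 558 and 527 FPKM in siSbp2l, 507 and 534 FPKM in siPdgfra and 238 to 450.4 FPKM in the controls, so both KDs lay above the controls. Of the 6 markers that did not pass the filter, Slc17a6 was at 0 and Slc17a7 at or under 0.047 FPKM in the 4 libraries. Gad1, another of them, was at 0.916 and 0.870 FPKM in siSbp2l. These members were named after their values were seen, and tested members such as Dcx and Elavl3 were present. Of the microglia markers 2 were tested and 0 called, and the single tested endothelial gene, Vwf, differed by 1.26 and lost its call with a pseudocount of 5.

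**Figure D5:**
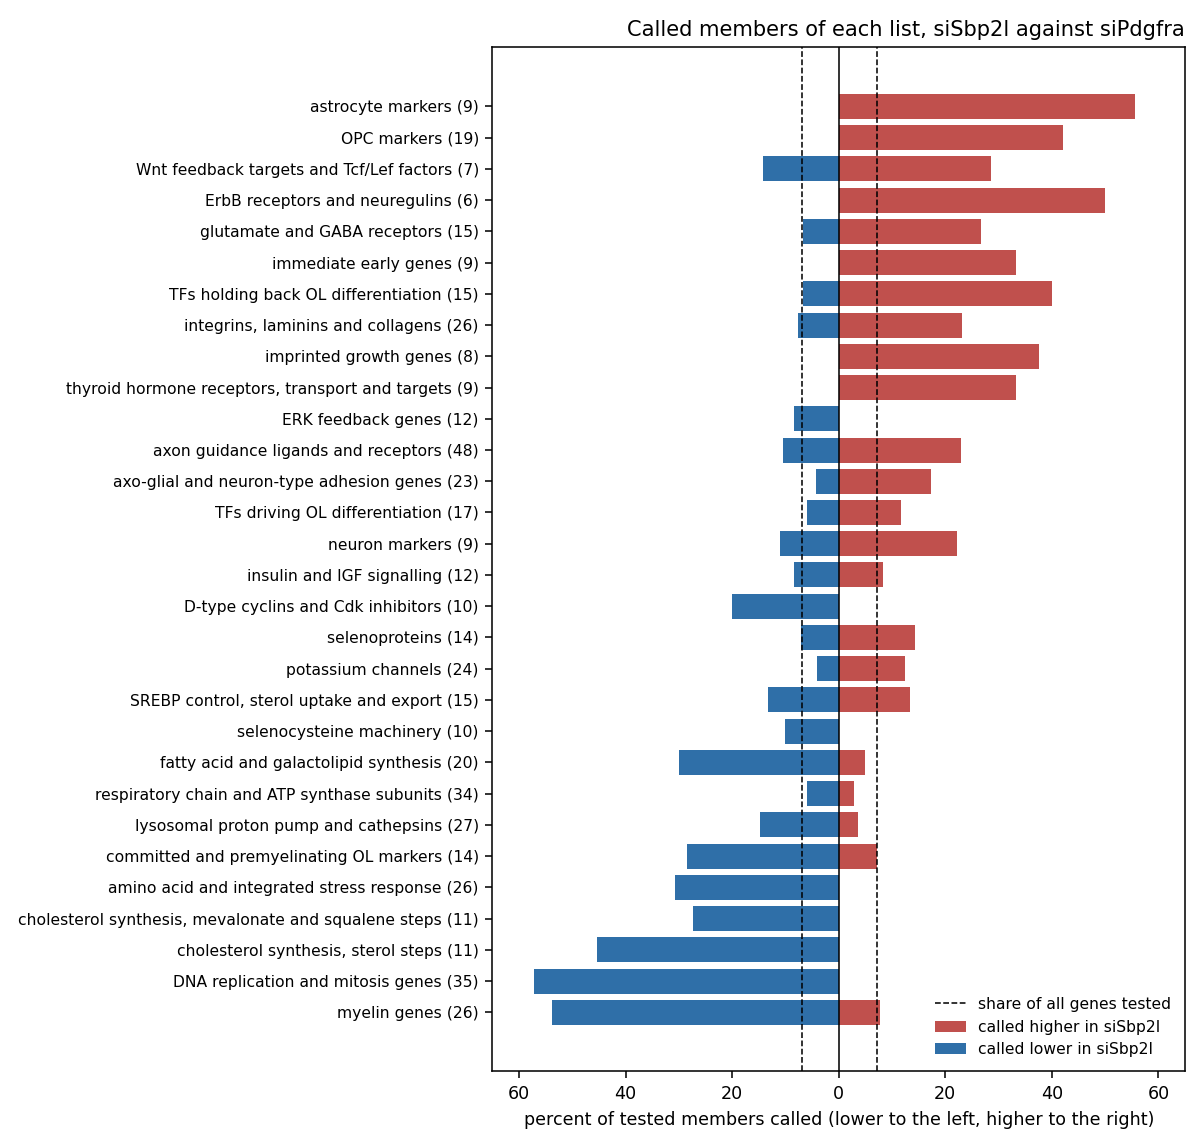
Share of the tested members of each list (number in parentheses, lists with at least 6 tested members) called higher (red, to the right) or lower (blue, to the left) in siSbp2l, ordered by the list median. Dashed lines mark the shares over all tested genes, 7.16% higher and 6.94% lower. The targeted genes Pdgfra and Secisbp2l are counted in their lists. Mitosis, myelin and sterol-step lists reach farthest to the left and astrocyte, ErbB and OPC marker lists farthest to the right.

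Exon length moved with the differences. When tested genes were split by exon length into 5 groups of 2256 or 2257 genes, 129 genes of the shortest group and 222 of the longest were called higher in siSbp2l, and 159 and 135 were called lower. The median log2 difference was -0.04 in the shortest and 0.16 in the longest group. Its part in the counts of long genes such as those of axon guidance was not tested. Genes with a close paralog or an overlapping neighbour may share fragments, and their values are less certain.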

How the data were processed

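Paired-end, stranded mRNA libraries of mouse OPC/OLs were processed by the authors in OmicSoft ArrayStudio against mm10 with refGene annotation (aligner and versions were not given in the sources used here). The values are FPKM as deposited by the authors, although the table is presented as counts. Whole-fragment steps of low values gave the estimated depth, and the level of 3 fragments on a 2 kb gene was 0.0691 to 0.0750 FPKM in the 4 libraries. A second table holds the authors' log2 fold changes and p-values (DESeq2) of siSbp2l against the controls, which were not used, and gave gene positions and exon lengths. One misspelled column was matched to siSbp2l, and columns named by day only to non-treated.

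Values were analysed as log2(FPKM + 1) with limma 3.58.1 (R 4.3.3, trend and robust moderation), the 12 Day3 libraries fitted together with 1 mean per group. Tables were made with Python 3.11.15, and the fit was tested on simulated data. Named genes are the targeted genes, genes the study discusses, the 12 largest called differences each way with a mean of at least 10 FPKM in a KD, and up to 4 called members per list with the largest difference (where none was called, up to 2 with the highest mean). Members and lists were chosen with earlier results of these data known. Alternatives changed scaling, pseudocount, filter, libraries, replicate block, moderation and threshold. Depth limits the precision of low genes. Some genes that this rule names are counted in their lists and not reported here by name.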

Additional observations from a re-analysis of the deposited data

How the results depend on the processing

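The count of 1591 called genes stayed between 1544 and 1595 under either rescaling, without the low-value filter, with fewer libraries in the fit and without the trend and robust options. Leaving out 1 KD replicate at a time gave 1578 to 1656. The count moved by over 1.5 times with a pseudocount of 5 (694), with a filter of 10 FPKM in 2 of the 4 libraries (1003), with a mean of at least 10 FPKM in a KD (1022) and with no fold threshold (5966), and was 2247 with a pseudocount of 0.1. The split by direction moved with median-ratio scaling, from 808 higher and 783 lower to 682 and 862. Replicate numbers share only a number, since nothing ties same-numbered cultures together and their deviations correlated at -0.39. With a replicate block 1593 genes were called, and the crossed pairing, chosen after seeing the data, gave 1590. Among 123 called named genes, 30 lost the call with a pseudocount of 5. Gap43 lost it with median-ratio scaling (0.98), without siSbp2l replicate 1 (0.97) and without siPdgfra replicate 1 (0.91). Mvk lost it without siSbp2l replicate 1 (-0.98), and Atp6ap2 (-0.95) and Egfr (0.99) without siPdgfra replicate 2. The log2 difference of Qk changed sign near 0, to 0.0178 with upper-quartile scaling, and lay between -0.0664 and 0.0658 without single replicates. With the filter of 10 FPKM the PDGF list median became 2.42 (and -1.55 for siPdgfra against the controls) and that of DNA replication and mitosis genes 0.0860, with fewer members left.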
